A study of Mus musculus with 6 samples.

Results

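*Impact* and the genes of the GCN2-ATF4 stress response were examined in hearts after Ang-II. The group holds 10 genes of the 56748 listed in the deposited count table, chosen by symbol: *Impact*, *Eif2ak4*, *Gcn1*, *Atf4*, *Ddit3*, *Trib3*, *Asns*, *Chac1*, *Sesn2* and *Psat1*. They occupy 11 rows, because *Ddit3* has a second row with 0 counts in every library, which was not used. *Impact* was singled out because of its level in 2 of the 6 libraries, so its values are a description and carry no test, and the other 9 genes are the pathway in which its protein acts.

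Whole-heart RNA from 3 Pontin cTG mice and 3 WT littermates was sequenced, each heart as a library of its own. The transgene is human Pontin with a flag tag, driven by the mouse α-MHC promoter and therefore in cardiomyocytes, and WT littermates lack it. All 6 mice were males on a C57Bl/6 background and were 10 weeks old when Ang-II was started. Every mouse, WT included, had been given Ang-II from a mini-osmotic pump for 14 days, at 1.5 mg per kg of body weight each day, so no heart without Ang-II was compared, and other Pontin models were not analysed here.

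GCN2, the product of *Eif2ak4*, is a kinase that responds to uncharged tRNA and to stalled ribosomes. With GCN1 bound to the ribosome it phosphorylates the initiation factor eIF2α, which lowers most protein synthesis but favours translation of the ATF4 mRNA, and ATF4 then activates genes of amino acid synthesis, amino acid transport and tRNA charging. IMPACT carries an RWD domain like that of GCN2, binds GCN1 in its place and so restrains GCN2, and in the mouse *Impact* is an imprinted gene expressed from the paternal allele. ATF4 is controlled mainly by translation and eIF2α by phosphorylation, and neither is measured by mRNA counts.

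The promoters of ATF4 targets often hold a C/EBP-ATF response element, to which ATF4 binds together with a C/EBP protein. The letters TGATGNAA, searched on both strands, were used as a simple form of it in RefSeq promoter windows (GRCm38.p6, from 250 bases before to 50 bases after each start), and they overlap with general binding letters of C/EBP factors. They occurred in 17 of the 41 listed ATF4 targets that had a window (41.5%), in 1 of 16 genes of the other branches of the unfolded protein response (6.25%) and in 1304 of all 32851 windows (3.97%). The shares of the lists are per gene, with a match in any window of the gene, whereas the last share is per window. Of the 10 genes, *Impact* had no window in the table, and *Asns*, *Chac1* and *Trib3* held the letters, that of *Trib3* lying 15 bases after the start. A match describes the letters only. Shown here are matches that lie before the start, chosen so that targets that were high in a Pontin cTG heart stand next to targets that were low in the same heart, 5′ to 3′ on the strand of the gene, with the 8 matched letters in capitals. The first 4 belong to genes above 1.5 times the WT mean in Pontin cTG replicate 2 and the last 3 to genes below the WT mean there, while *Gdf15* and *Mthfd2*, which of the tested targets exceeded the WT mean most in that heart, held no match in their windows.
*Asns* (chr6:7693210-7693248, minus strand): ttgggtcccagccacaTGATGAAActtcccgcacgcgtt
*Chac1* (chr2:119351033-119351072, plus strand): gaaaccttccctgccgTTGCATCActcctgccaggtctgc
*Nupr1* (chr7:126625557-126625596, minus strand): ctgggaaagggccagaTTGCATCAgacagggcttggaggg
*Pck2* (chr14:55540147-55540186, plus strand): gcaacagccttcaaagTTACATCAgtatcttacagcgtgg
*Atf3* (chr1:191183420-191183459, minus strand): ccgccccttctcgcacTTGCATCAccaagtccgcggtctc
*Got1* (chr19:43524684-43524723, minus strand): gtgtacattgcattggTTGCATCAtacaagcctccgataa
*Vldlr* (chr19:27216804-27216843, plus strand): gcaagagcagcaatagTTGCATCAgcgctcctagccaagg

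The WT libraries held 12436822 to 13194038 counts and the Pontin cTG libraries 14584102 to 16888124. Pontin cTG replicate 2 stood apart on the first principal component (48.6% of the variance) with a score of 50.9 against -23.1 to 16.2 in the other libraries. All 8 cardiomyocyte markers examined passed the filter on low counts, and each marker of the other cell types had counts in some library. In whole hearts fewer cells of a type and less RNA per cell cannot be told apart. The 5 endothelial markers were all highest in Pontin cTG replicate 2, with a sum of 1129 CPM (counts per 1000000 counts, after TMM normalisation) against 753 to 889 in the other libraries. The fibroblast markers summed to 1914 there and 1900 in WT replicate 2, against 986 to 1251 elsewhere, and the 4 adipocyte markers to 633 against 392 to 440. Of these 4, only 1 passed the filter on low counts. Pontin cTG replicate 2 was the highest library in 3 of the 6 fibroblast markers and in 1 of the 4 adipocyte markers. List medians, and pathway genes whose value rests on Pontin cTG replicate 2, are also given without it.

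*Impact* (chromosome 18 from 12955852 to 12992950, GRCm38) was near its WT level in a single Pontin cTG heart and almost absent in the other pair. It had 239, 264 and 251 counts in WT replicates 1 to 3 and 21, 382 and 16 counts in Pontin cTG replicates 1 to 3. The normalised levels were 18.7, 21.0 and 19.9 CPM in WT and 1.46, 23.2 and 0.984 CPM in Pontin cTG hearts. The 3 WT hearts lay close together (19.9 ± 1.17 CPM, SD, n = 3), Pontin cTG replicate 2 was the highest of the 6 libraries at 117% of the WT mean, and Pontin cTG replicates 1 and 3 held 7.32% and 4.95% of it. Their levels were 12.8 and 19.0 times lower than the lowest of the other 4 libraries. The 95% Poisson intervals, which cover counting error only, were 0.901 to 2.22 and 0.562 to 1.60 CPM in these hearts and 16.4 to 21.2 CPM in WT replicate 1, the lowest WT library. Among the 13888 genes that passed the filter on low counts, *Impact* had an expression percentile between 54.8 and 61.1 in the other 4 libraries, but of 10.1 and 5.72 in Pontin cTG replicates 1 and 3. The log2 fold change of *Impact* was -1.20 over all libraries and -4.03 without Pontin cTG replicate 2, so that a mean of the Pontin cTG group describes none of its hearts. These 2 hearts were picked by their *Impact* level and form no labelled group, so other genes are set beside them by value and by count, with no mean and no test.

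**Figure D1:**
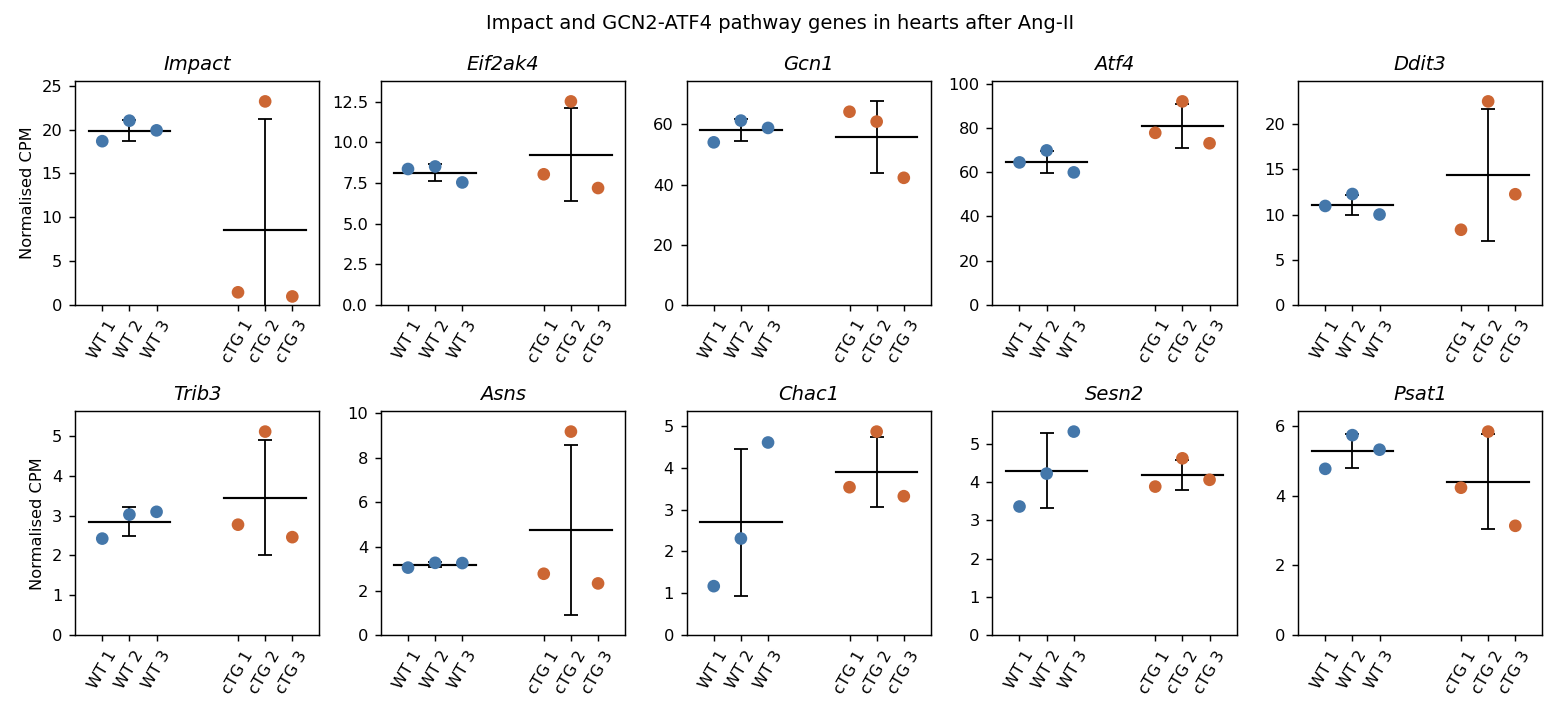
Normalised CPM (y axis, linear from 0, a scale of its own in each panel) of the 10 genes in each of the 3 WT (blue) and 3 Pontin cTG (orange) libraries. Points are libraries, horizontal lines are group means and bars are SD (n = 3, cut off at 0 for *Impact*, whose SD exceeds its mean in Pontin cTG hearts). *Impact* is at 1.46 and 0.984 CPM in Pontin cTG replicates 1 and 3, and *Asns*, *Ddit3* and *Trib3* are highest in Pontin cTG replicate 2.

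Neither the kinase that IMPACT restrains nor the activator that it binds passed the test between the groups. *Eif2ak4* had 8.36, 8.52 and 7.54 CPM in WT and 8.04, 12.5 and 7.19 CPM in Pontin cTG replicates 1 to 3. Pontin cTG replicate 2 was above all other libraries, the rest of the 2 groups overlapped, and the log2 fold change was 0.19 with a standard error of 0.23 (adjusted p = 0.999, quasi-likelihood test of edgeR, Benjamini-Hochberg over all 13888 genes), and -0.10 without replicate 2. *Gcn1* had 54.0, 61.2 and 58.8 CPM in WT and 64.2, 60.9 and 42.2 CPM in Pontin cTG hearts. Here Pontin cTG replicates 1 and 3, the hearts that shared a near absence of *Impact*, were the highest and the lowest of all 6 libraries, and the log2 fold change was -0.06 (standard error 0.17).

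*Atf4*, the transcription factor at the centre of the response, was the only gene among the 9 whose groups did not overlap. It had 64.4, 69.8 and 59.9 CPM in WT and 77.8, 92.0 and 73.1 CPM in Pontin cTG hearts, a log2 fold change of 0.32 (standard error 0.14). Its lowest Pontin cTG library exceeded its highest WT library, which was so for 4.7% of all genes tested, and the groups of *Atf4* overlapped when only library size was used for scaling. In edgeR the unadjusted p was 0.0455 and the adjusted p 0.999. *Ddit3*, which encodes the transcription factor CHOP, had 10.9, 12.3 and 9.999 CPM in WT and 8.32, 22.5 and 12.2 CPM in Pontin cTG hearts. Pontin cTG replicate 2 had 2.03 times the WT mean and Pontin cTG replicate 1 was the lowest of all libraries, so the groups overlapped (log2 fold change 0.38, standard error 0.32, and -0.10 without replicate 2). The 3′ end of *Ddit3* overlaps the gene of methionyl-tRNA synthetase, *Mars1*, on the opposite strand, and whether reads were counted by strand is not given in the sources used here.

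Of the 5 target genes among the members, *Asns* and *Trib3* stood out in a single library. *Asns*, the enzyme that makes asparagine from aspartate, had 3.05, 3.26 and 3.25 CPM in WT and 2.77, 9.18 and 2.34 CPM in Pontin cTG hearts. Pontin cTG replicate 2 stood 2.88 times above the WT mean while the other Pontin cTG hearts lay below every other library. Its log2 fold change of 0.58 (standard error 0.49) turned to -0.32 without Pontin cTG replicate 2. *Trib3*, a pseudokinase that feeds back on ATF4, had 2.42, 3.03 and 3.09 CPM in WT and 2.77, 5.11 and 2.46 CPM in Pontin cTG hearts. It too was highest in Pontin cTG replicate 2, with the other hearts within the WT range (log2 fold change 0.28, standard error 0.33, and -0.12 without that library).

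*Chac1*, an enzyme that degrades glutathione, had 1.17, 2.31 and 4.60 CPM in WT and 3.53, 4.86 and 3.32 CPM in Pontin cTG hearts. The WT libraries themselves spread about as widely as the whole set (2.69 ± 1.75 CPM, SD, n = 3), and the log2 fold change was 0.54 (standard error 0.44). It was 0.18 without WT replicate 1, 1.17 with WT replicate 3 left out and 0.35 with Pontin cTG replicate 2 left out. *Sesn2*, a sestrin that senses leucine for mTORC1, had 3.36, 4.22 and 5.32 CPM in WT and 3.88, 4.62 and 4.06 CPM in Pontin cTG hearts, which all lay within the WT range (log2 fold change -0.04, standard error 0.25). *Psat1*, an aminotransferase of serine synthesis, had 4.77, 5.73 and 5.32 CPM in WT and 4.23, 5.84 and 3.14 CPM in Pontin cTG hearts. As for *Asns*, Pontin cTG replicates 1 and 3 were the lowest of the 6 libraries, and the log2 fold change was -0.26 (standard error 0.26), which became -0.52 without Pontin cTG replicate 2 and -0.06 without replicate 3.

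In all, 0 of the 9 genes passed an adjusted p of 0.05 in edgeR, as did 0% of all genes tested (0 of 13888). At an unadjusted p under 0.05 there was 1 of the 9, *Atf4*, beside 2.05% of all genes (285). None of the 9 passed in DESeq2, which called 1 gene of the whole table (0.0072%) and had 219 (1.58%) at an unadjusted p under 0.05, or in limma-voom, which called 3 (0.0216%). Over 13 alternative settings, the adjusted p of the 9 genes ran from 0.855 to 0.9999. For 3 mice against 3, the smallest p of an exact permutation test is 0.1.

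Read by library, 7 of the 9 genes had their highest level in Pontin cTG replicate 2, the heart with the most *Impact*, against 30.2% of all genes tested. In 5 of them, *Asns*, *Ddit3*, *Chac1*, *Trib3* and *Eif2ak4*, that library exceeded 1.5 times the WT mean, against 11.5% of all genes. None of the 9 exceeded that line in Pontin cTG replicates 1 or 3, against 2.47% and 2.55% of all genes. Neither did any of the 9 stand with Pontin cTG replicates 1 and 3 both above the other 4 libraries (7.24% of all genes), whereas 2 of them, *Asns* and *Psat1*, had both below (7.57% of all genes). In Pontin cTG replicate 2 the endothelial, fibroblast and adipocyte sums given above were also at their highest, the fibroblast sum only just above WT replicate 2. Their part in these values was not tested.

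The levels of the genes relative to each other were compared per kilobase of gene length. In WT hearts *Atf4* was highest with 27.4 CPM per kilobase, followed by *Ddit3* with 6.46, *Impact* with 3.87 and *Gcn1* with 3.26, and the WT ranges of these 4 genes did not overlap with each other. The remaining 6 genes lay between 1.65 in *Chac1* and 1.09 in *Eif2ak4*, and each overlapped with its neighbour in the order. In both Pontin cTG replicate 1 and replicate 3, *Impact* was the lowest of the 10 genes.

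The wider pathway was read from lists of its parts, with the median log2 fold change of all 13888 genes at 0.0013. Of the 8 kinases and activators of the eIF2α pathway, *Impact* included, 2 had a positive and 6 a negative log2 fold change (median -0.03) and 0 were called. The RNA-activated kinase PKR, *Eif2ak2*, had the smallest p, with all Pontin cTG libraries (14.2 to 16.7 CPM) below all WT libraries (17.1 to 19.2 CPM, log2 fold change -0.22, standard error 0.13, unadjusted p = 0.132 in edgeR). Such a separation was found in 1 of the 8 genes, against 3.63% of all genes tested. *Eif2ak2* was followed by *Eif2ak4* and by the heme-regulated kinase *Eif2ak1* (-0.10, standard error 0.15). Of 11 genes of RWD domain proteins, *Impact* and *Eif2ak4* included, 10 were tested, with 4 higher and 6 lower and a median of -0.02. *Impact*, singled out for its level, was among the lower genes in both lists. The smallest p values there belonged to the ubiquitin ligase gene *Rnf25* (0.16, standard error 0.19), *Eif2ak4* and *Rwdd1* (0.08, standard error 0.13). *Rwdd2a* was not tested because of low counts.

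Among the 12 partners of GCN1 and of collided ribosomes, 8 were higher and 4 lower (median 0.03, 0 called). The log2 fold change was 0.23 (standard error 0.14) for *Drg2*, a ribosome-associated GTPase gene, while the helicase gene *Ascc3* was at -0.31 (standard error 0.20) and *Zfp598*, whose product marks collided ribosomes with ubiquitin, at 0.22 (standard error 0.14). Of the 13 genes of eIF2, its exchange factor eIF2B and its phosphatases, 7 were higher and 6 lower (median 0.01, 0 called). The smallest p values were those of the eIF2B subunits *Eif2b4* (0.20, standard error 0.13), *Eif2b3* (0.18, standard error 0.15) and *Eif2b2* (0.17, standard error 0.13). None of these values passed even an unadjusted p of 0.05. With Pontin cTG replicate 2 left out, the medians were -0.06 for the kinases and activators, 0.03 for the RWD domain genes, 0.06 for the partners of GCN1 and 0.08 for the genes of eIF2.

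The transcription factors of the response had the largest median of the pathway lists, 0.31 over 8 genes, with 6 higher and 2 lower and 0 called. Without Pontin cTG replicate 2 the median was 0.06, with 4 higher and 4 lower. *Atf5*, a relative of ATF4 that is translated by the same mechanism, had 51.8, 38.4 and 49.99 CPM in WT and 59.3, 91.5 and 52.9 CPM in Pontin cTG hearts, with no overlap (log2 fold change 0.54, standard error 0.22, unadjusted p = 0.0365 and adjusted p = 0.999 in edgeR), and its log2 fold change was 0.26 without Pontin cTG replicate 2. Together with *Atf4* it was 1 of 2 genes of this list at an unadjusted p under 0.05, both in the direction shown by 1.02% of all genes. *Atf3* went the other way, with 10.2, 11.4 and 11.3 CPM in WT and 10.7, 7.23 and 6.52 CPM in Pontin cTG hearts (log2 fold change -0.43, standard error 0.21). For *Cebpg*, which encodes a dimer partner of ATF4, the value was 0.25 (standard error 0.13).

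Of 51 listed ATF4 targets, 47 were tested, since *Phgdh*, *Fgf21*, *Slc7a3* and *Slc7a11* had too few counts. Pontin cTG hearts had more of 31 and less of 16 of them. The median log2 fold change was 0.08, and it was 0.01 when Pontin cTG replicate 2 was left out, 0.02 when replicate 1 was and 0.15 when WT replicate 3 was. None was called in edgeR, and 2 had an unadjusted p under 0.05, 1 in each direction (1.02% of all genes were higher and 1.03% lower at that p). *Slc38a2*, an amino acid transporter gene, had 254, 310 and 290 CPM in WT and 230, 216 and 194 CPM in Pontin cTG hearts, with every Pontin cTG library below every WT library (log2 fold change -0.42, standard error 0.15, unadjusted p = 0.0188 in edgeR). The other was *Atf5*. Next by p, *Mthfd2*, a mitochondrial folate enzyme, had 4.85, 5.81 and 3.57 CPM in WT and 6.93, 15.5 and 4.55 CPM in Pontin cTG hearts (log2 fold change 0.92, standard error 0.42, unadjusted p = 0.057 in edgeR, and 0.27 on the log2 scale without Pontin cTG replicate 2).

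Groups that did not overlap were found in 6 targets. *Atf5*, the serine synthesis gene *Psph* and the tRNA synthetase genes *Mars1*, *Sars* and *Yars* had every Pontin cTG library above WT (5 of 47, against 4.7% of all genes), and *Slc38a2* had every one below (1 of 47, against 3.63%). The targets differed more by library. In Pontin cTG replicate 2, 22 of the 47 (46.8%) were at their highest and 12 (25.5%) at their lowest of the 6 libraries, beside 30.2% and 30.7% of all genes. That library exceeded 1.5 times the WT mean in 11 targets, reaching 5.60 times in the stress cytokine gene *Gdf15*, 3.27 times in *Mthfd2*, 2.88 times in *Asns* and 2.35 times in *Nupr1*, a small chromatin protein induced by stress. Pontin cTG replicate 1 exceeded it in 2 targets, *Ddit4* with 123 CPM against 21.7 to 44.8 in WT and *Cebpb* with 2.03 times the WT mean, and Pontin cTG replicate 3 in 0. The 3 tested targets that encode secreted proteins or receptors, *Gdf15* among them, had log2 fold changes from -0.20 to 1.11. Without Pontin cTG replicate 2, the log2 fold changes of these 3 genes ran from -1.22 to 0.20.

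Beside the near absence of *Impact* in Pontin cTG replicates 1 and 3, 2 of the 47 targets, the transaminase genes *Gpt2* and *Got1*, were above the other 4 libraries in both of these hearts (7.24% of all genes were). The number below in both was 5 (7.57% of all genes), namely *Asns*, *Psat1*, *Cth*, *Slc1a5* and *Slc6a9*. The median deviation of the targets from their WT means was 0.07 and -0.04 on the log2 scale in these hearts, 0.14 in Pontin cTG replicate 2, and -0.04 to 0.03 in the WT hearts. The hearts with little *Impact* were thus on both sides of the WT mean and within 0.1 of it.

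**Figure D2:**
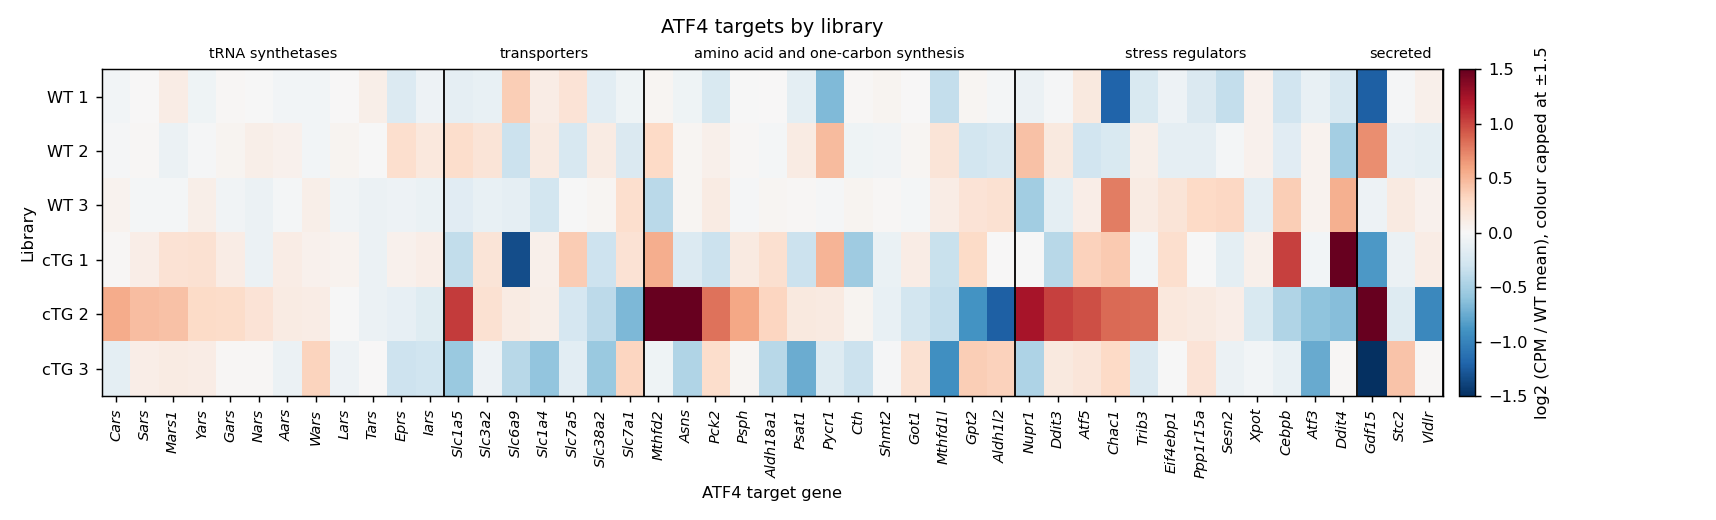
Log2 ratio of each library's CPM to the WT mean for the 47 tested ATF4 targets (columns, grouped by role) in 6 libraries (rows), with red above and blue below the WT mean and colours capped at 1.5 in either direction. Pontin cTG replicate 2 is at the cap of the red scale in *Mthfd2*, *Asns* and *Gdf15*, and Pontin cTG replicate 1 in *Ddit4*, at 3.97 times the WT mean. Pontin cTG replicates 1 and 3, where *Impact* was nearly absent, show scattered genes of either sign.

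Sorted by role after the values had been seen, the 12 aminoacyl-tRNA synthetase genes kept closest together. Their log2 fold changes ran from -0.12 to 0.27, 8 were higher and 4 lower, and 7 were highest in Pontin cTG replicate 2, at a median of 1.12 times the WT mean there. Their median log2 fold change was 0.09, and 0.002 without that library. The 13 tested genes of amino acid, serine and one-carbon synthesis ranged more widely, from -0.51 to 0.92, with 7 highest and 4 lowest in Pontin cTG replicate 2. The median over the 7 tested amino acid transporter genes was 0.02, and -0.22 without Pontin cTG replicate 2. For the 12 transcription factors and stress regulators the median was 0.29, with 9 higher and 3 lower, and 0.06 without Pontin cTG replicate 2.

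The promoter letters were set beside the levels of the targets in Pontin cTG replicate 2. Of the 15 tested targets with a match, 8 were highest in this library, and of the 23 with a window but no match, 10 were. The median ratio to the WT mean was 1.09 in both sets, with a range of 0.513 to 2.88 with a match and 0.536 to 5.60 without. *Asns*, *Nupr1* and *Vldlr*, whose matched letters are printed above, thus stood at 2.88, 2.35 and 0.513 times the WT mean in the same heart.

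The other branches of the unfolded protein response, which run through ATF6 and IRE1, were set beside the ATF4 targets. Of 19 genes 18 were tested, *Derl3* having too few counts, with 6 higher and 12 lower (median log2 fold change -0.08) and 0 called or at an unadjusted p under 0.05. In Pontin cTG replicate 2, 14 of the 18 (77.8%, against 30.7% of all genes) were at their lowest and 1 at its highest. The median deviation from the WT means was -0.30 there, 0.10 and 0.02 in Pontin cTG replicates 1 and 3, and -0.02 to 0.00 in WT. The sign of the median log2 fold change thus rests on that library, and without it the value was 0.06. *Creld2*, which encodes a chaperone-like protein of the endoplasmic reticulum, had the smallest p (log2 fold change 0.25, standard error 0.14). *Atf6* had 179, 161 and 167 CPM in WT and 167, 91.8 and 141 CPM in Pontin cTG hearts, and *Ern1*, the gene of IRE1, 15.9, 16.4 and 17.1 CPM in WT and 15.7, 10.3 and 15.3 CPM in Pontin cTG hearts.

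**Figure D3:**
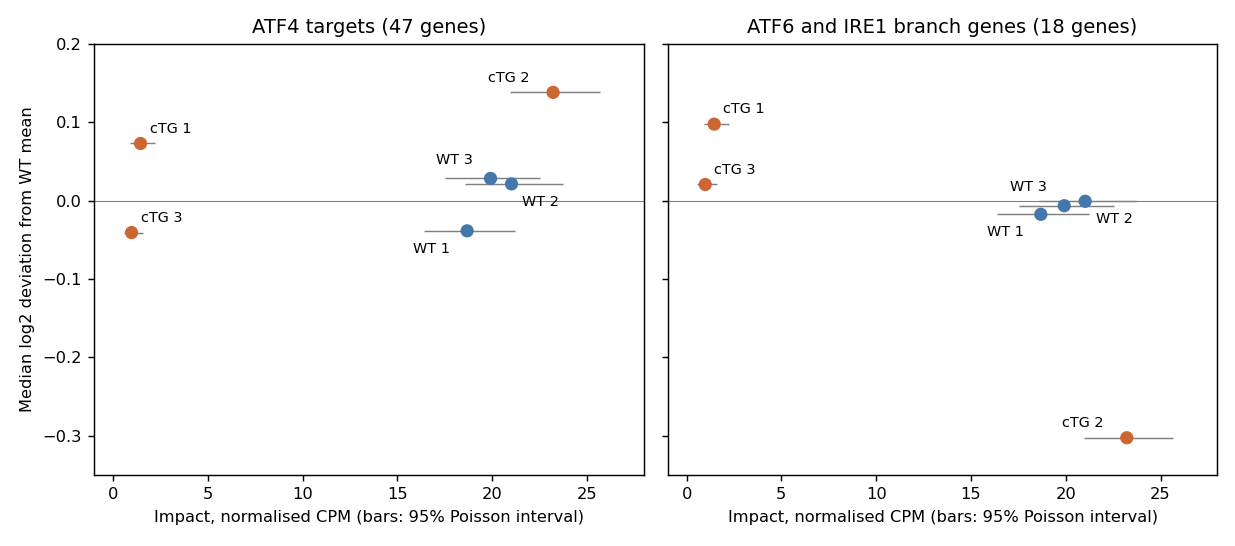
Median log2 deviation from the WT mean (y axis) of 47 ATF4 targets (left) and of 18 genes of the ATF6 and IRE1 branches (right), against the CPM of *Impact* (x axis), with 1 point per library and horizontal bars for the 95% Poisson interval of *Impact*. Pontin cTG replicate 2 is at 0.14 on the left and -0.30 on the right, and Pontin cTG replicates 1 and 3, at the left edge of both panels, lie within 0.1 of 0.

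A pair of neighbouring programs was also read. Of 8 genes of the mitochondrial unfolded protein response, 4 were higher and 4 lower, with a median of -0.02 that was 0.14 without Pontin cTG replicate 2. In that library 5 of the 8 were at their lowest, against 30.7% of all genes. Their median deviation from the WT means was -0.29 there, beside -0.30 for the ATF6 and IRE1 genes. The protease gene *Clpp* had 41.6, 38.1 and 42.4 CPM in WT and 47.9, 52.5 and 49.6 CPM in Pontin cTG hearts, with no overlap (log2 fold change 0.30, standard error 0.12, unadjusted p = 0.0327 and adjusted p = 0.999 in edgeR). The chaperonin gene *Hspe1* (0.23, standard error 0.12) and the protease gene *Lonp1* (0.17, standard error 0.14) came next. Of 12 sestrins and amino acid sensors of mTORC1, 4 were higher and 8 lower, and the smallest p values were those of *Sesn3* (-0.30, standard error 0.20), the arginine sensor *Castor1* (0.40, standard error 0.28) and *Ddit4* (0.90, standard error 0.63), of which none was under 0.05. Without Pontin cTG replicate 2 their log2 fold changes were -0.09, 0.18 and 1.31, and the median of the 12 genes went from -0.01 to 0.02. In that library 6 of the 12 were at their lowest, with a median deviation of -0.17. *Ddit4* was at -0.27 without Pontin cTG replicate 1.

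Next, the genes around *Impact* on chromosome 18 were compared, 8 tested genes on each side in the order of the table. All 8 genes on the side of lower coordinates (*Tmem241*, *Riok3*, *Rmc1*, *Npc1*, *Ankrd29*, *Lama3*, *Ttc39c* and *Osbpl1a*) had a negative log2 fold change (median -0.85, from -0.95 to -0.62), 6 of them at an unadjusted p under 0.05 in edgeR (1.03% of all genes were lower at that p) and 0 called. With no filter on low counts *Npc1* was called, and without Pontin cTG replicate 2 the median was -0.77. *Osbpl1a*, the nearest (from 12755314 to 12941841, GRCm38), encodes an oxysterol-binding protein and had 79.5, 42.1 and 78.3 CPM in WT and 38.3, 27.0 and 38.5 CPM in Pontin cTG hearts. *Npc1*, the lysosomal cholesterol transporter, had 32.4, 20.8 and 34.0 CPM in WT and 17.5, 13.9 and 14.9 CPM in Pontin cTG hearts. In all 8 of these genes, WT replicate 2 and the 3 Pontin cTG libraries lay below WT replicates 1 and 3, against 5.4% of all genes tested, and in 3 of them all Pontin cTG libraries lay below all WT libraries (3.63% of all genes). The division that sets WT replicate 2 with the Pontin cTG libraries follows no label. It was read from these neighbouring genes themselves, so their count is a description and no test of it.

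*Impact* did not share this division, since it was high in both WT replicate 2 and Pontin cTG replicate 2. In Pontin cTG replicates 1 and 3, the 8 genes had 0.471 to 0.712 and 0.356 to 0.680 times their WT means, against 0.0732 and 0.0495 times for *Impact*. On the other side, 7 of 8 genes (*Zfp521*, *Gm6457*, *Ss18*, *Taf4b*, *Kctd1*, *Mrpl27-ps* and *Gm10036*) were lower and *Aqp4* higher, with a median log2 fold change of -0.07 and 0 at an unadjusted p under 0.05. *Zfp521*, the first of them, had 18.1, 14.9 and 15.7 CPM in WT and 18.8, 12.7 and 16.97 CPM in Pontin cTG hearts, so that the groups overlapped. None of the 16 neighbours was below 0.319 times its WT mean in Pontin cTG replicate 1 or below 0.356 times in replicate 3. The value of 0.319 belonged to the pseudogene *Mrpl27-ps*, which had only 4 counts there and 11 in each WT library.

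**Figure D4:**
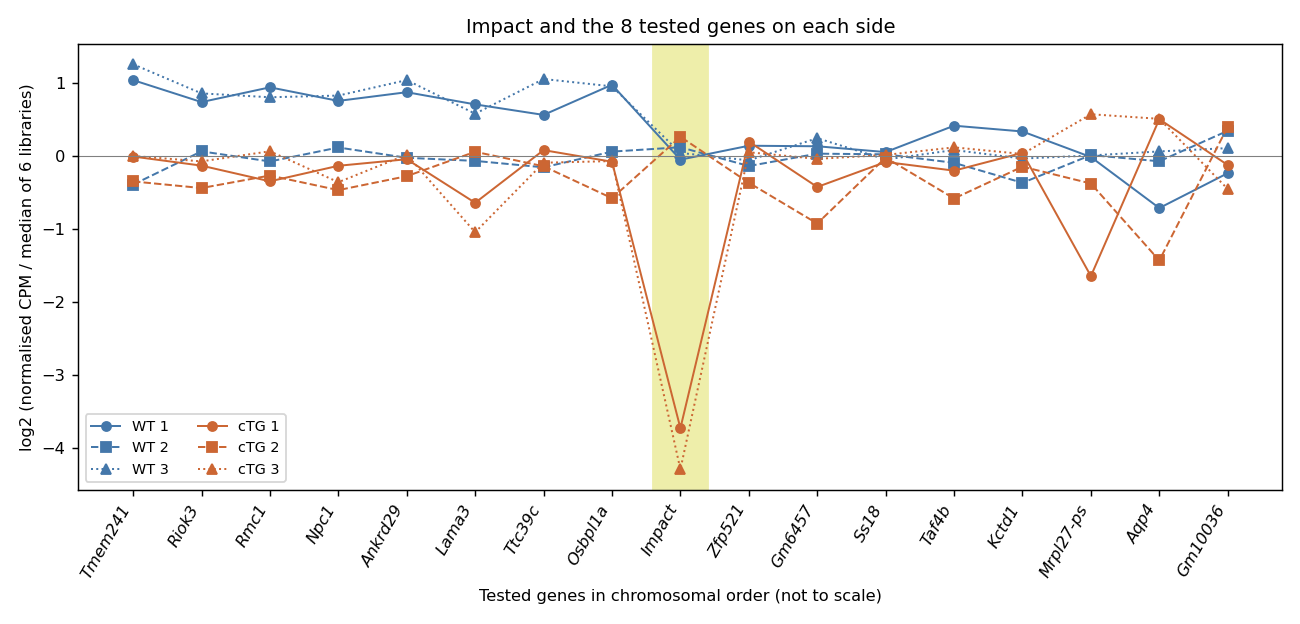
Log2 ratio of each library's normalised CPM to the median of the 6 libraries (y axis) for *Impact* (shaded) and the 8 tested genes on each side in chromosomal order (x axis, not to scale), with WT libraries in blue and Pontin cTG libraries in orange. WT replicates 1 and 3 lie above the other 4 libraries in the 8 genes before *Impact*, and in *Impact* itself only Pontin cTG replicates 1 and 3 are low.

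The genes most like *Impact* over the 6 libraries were found by Pearson's r of log2 CPM, as a description over 6 points that share library and depth. The 10 highest were *4632404M16Rik* (0.995), *Tasor* (0.993), *Trim36*, *Kazn*, *Zwilch*, *Gm7336*, *Cep162*, *Snx10*, *Gpatch8* and *Wipf1*. Of 13887 genes compared, 100 had an r over 0.9 and 51 an r under -0.9. The differences in the similar genes were far smaller than in *Impact*. *4632404M16Rik*, annotated as a sense-intronic transcript, had 3.99, 4.46 and 3.81 CPM in WT and 1.52, 4.25 and 1.17 CPM in Pontin cTG hearts. *Tasor*, a subunit of a complex that silences heterochromatin, had 18.4, 18.8 and 19.0 CPM in WT and 15.8, 18.9 and 14.9 CPM in Pontin cTG hearts.

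The 5 genes least like *Impact* were *Zkscan5* (r = -0.986), *Tmem11*, *Nudc-ps1*, *Egr1* and *Isy1*. *Egr1*, an immediate early transcription factor gene that lies on chromosome 18 from 34859823 to 34864984, had 15.5, 16.2 and 15.7 CPM in WT and 32.9, 18.4 and 33.9 CPM in Pontin cTG hearts. The libraries with the least *Impact* thus had 2.08 and 2.15 times the WT mean of *Egr1*. All Pontin cTG libraries lay above WT, as in 4.7% of all genes tested (log2 fold change 0.85, standard error 0.22, adjusted p = 0.999 in edgeR). Among the other 9 genes of the pathway, r with *Impact* was 0.91 for *Psat1* and between -0.17 for *Atf4* and 0.56 for *Asns* for the rest.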

How the data were processed

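Reads of 6 heart libraries (3 Pontin cTG, 3 WT) were aligned and counted by the authors, and the deposited table holds raw whole-number counts per gene with no normalisation. The submitters' processing notes list fastp, HISAT2, featureCounts, DESeq2 and GRCm39 (mm39), whereas the methods of the paper name Trimmomatic, STAR and mm10 without separating its experiments, and the strand setting is not given in the sources used here. All sample columns were matched to a sample by name (0 unmatched), and 0 rows lacked a gene name.

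The filter was filterByExpr with a minimum count of 10, and the scaling was TMM. Groups were tested in edgeR 4.0.16 under R 4.3.3 with a robust quasi-likelihood fit that had genotype as its single term, with Benjamini-Hochberg adjustment over 13888 genes and a threshold of 0.05. The common biological coefficient of variation was 0.197. CPM are counts per 1000000 of the TMM-scaled library size, and the standard error is the size of the log2 fold change divided by the square root of F. Log2 CPM for correlations used a prior count of 2. The labels do not tie replicate numbers to litters, and the p-values set the difference between the groups against the spread between these mice. No pair of libraries agreed within sampling noise (chi-square per gene of at least 5.54). The tests were checked on simulated data.

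The members and lists were chosen with earlier results of these data known. Named are all members, in each list the 3 genes with the smallest p, the 10 genes most and 5 least like *Impact*, and its 8 tested neighbours on each side. Other genes were named after their values had been seen, and the targets were sorted by role then too. Alternatives were DESeq2 1.42.0, edgeR with the size factors of DESeq2 or with library size alone, no filter beyond 1 count in some library, a minimum of 10 in each library, limma-voom (limma 3.58.1) with sample quality weights, the replicate block and each library left out. The counts by library under the other scalings, and the list medians and neighbours without each library, were added after the data had been seen. The table's older symbols (*Sars*, *Yars* and others) were kept. Positions are from GENCODE M21 on GRCm38, matched by Ensembl identifier (52073 genes shared, 1472 with the same coordinates in the table), and the table's own coordinates gave gene order only. RefSeq windows were matched by symbol.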

Additional observations from a re-analysis of the deposited data

How the results depend on the processing

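The number of genes called was 0 with edgeR, 1 with DESeq2, 3 with no filter on low counts, 3 with limma-voom and 0 to 3 when each library was left out in turn (3 without Pontin cTG replicate 2). In limma-voom and without Pontin cTG replicate 2, the 3 genes were *Egr1*, *Scd4* and *Impact*. For *Impact*, singled out by its level, such a call is no test. Of the 9 pathway genes, 0 were called under any of these settings. When each library was left out in turn, the log2 fold change ran from -0.097 to 0.34 in *Eif2ak4*, -0.10 to 0.66 in *Ddit3*, -0.12 to 0.47 in *Trib3* and -0.32 to 0.91 in *Asns*, each negative only in the absence of Pontin cTG replicate 2. It ran from -0.16 to 0.11 in *Gcn1*, positive only in the absence of Pontin cTG replicate 3, and from -0.18 to 0.15 in *Sesn2*, with 0.022 in the absence of Pontin cTG replicate 1 and the highest value in that of WT replicate 3. In limma-voom, which weights libraries by quality, *Eif2ak4*, *Ddit3*, *Asns* and *Sesn2* changed sign to -0.028, -0.087, -0.14 and 0.022. *Atf4*, *Chac1*, *Psat1* and *Impact* kept their direction under all 13 alternatives, over which *Chac1* ran from 0.18 to 1.17, *Psat1* from -0.52 to -0.065 and *Atf4* from 0.22 to 0.39. In limma-voom the value of *Impact* was -3.60 and the median of the ATF6 and IRE1 branch genes 0.04. The order of the 6 libraries by *Impact* was the same under all 3 scalings, and 9 of the 10 genes most like it were shared when r was taken on the linear scale or with a prior count of 0.5. The cause of the other differences was not tested. Counts per library were 15 to 84 in *Trib3* and *Chac1*, which limits the precision of their values.

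Whether equal replicate numbers pair the libraries was checked. Deviations from the group means correlated between libraries of equal number at 0.077, 0.43 and 0.19, not every one above 0.1. Libraries of unequal number were not compared in this way, so these values cannot decide the question. No label ties the numbers to litters, and the libraries were treated as unpaired. With the replicate block, 0 genes were called, 499 had an unadjusted p under 0.05, and the median of the ATF4 targets was 0.06.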
